A study of Mus musculus with 3 samples.

Results

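Fatty acid oxidation and ketogenesis were followed through 36 genes of the mouse intestine, of 21983 genes in the deposited count table, chosen by symbol for their place in mitochondrial and peroxisomal beta-oxidation, ketone body metabolism and the PPAR-alpha programme. All 36 were in the table, and all 36 passed the filter of at least 1 count per 1000000 scaled counts (CPM) in a library of each comparison. There were 3 groups with 1 library each, all labelled wild type and taken at 96 h. The PCI34051+NEC pups and the NEC pups were both put through the regimen that models necrotizing enterocolitis (NEC), in which the gut of the newborn becomes inflamed and dies. They received 40 µl of 33% Esbilac formula by gavage every 4 h, and every 12 h were held in 99.9% nitrogen for 100 s and then at 4 °C for 10 min. The PCI34051+NEC pups were also fed PCI34051, a selective inhibitor of the lysine deacetylase HDAC8, at 10 mg/kg per day for 5 days, starting the day before. The NEC pups and the control pups received PBS in place of the inhibitor, and the control pups stayed with the dam, with neither hypoxia nor cold. Age, sex, strain and the stretch of intestine sampled were not given in the sources used here, nor whether a library was 1 pup or a pool. With 1 library per group there was no replicate error and no test: every difference below separates libraries, with 95% intervals for counting error only, and formula, hypoxia and cold cannot be told apart.

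Fatty acids enter mitochondria as carnitine esters through CPT1, the carnitine-acylcarnitine translocase and CPT2. There each turn of beta-oxidation removes a pair of carbons through a dehydrogenase, a hydratase, a second dehydrogenase and a thiolase, and the acetyl-CoA released is burnt or, in ketogenic tissues, turned into ketone bodies. Peroxisomes shorten very long and branched chains by a parallel set of enzymes. PPAR-alpha is the fatty-acid-activated nuclear receptor that raises transcription of many of these genes. The suckling intestine lives on a fat-rich milk diet, and its epithelium is known to make ketone bodies.

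The libraries held 16497580 counts (PCI34051+NEC), 10650638 counts (NEC) and 15076413 counts (control). The NEC library stood apart from the rest. Mitochondrially encoded genes took 32.4% of its counts, against 3.73% in PCI34051+NEC and 4.88% in control. The Y-linked Eif2s3y had 1134 counts in PCI34051+NEC, 0 in NEC and 999 in control. By that gene, male tissue was present in PCI34051+NEC and control and not seen in NEC. Sex therefore cannot be told apart from the other differences in either comparison that uses the NEC library. Epithelial markers were present in all 3 libraries, as the label of intestine asks, but at unlike sums: the 12 pan-epithelial genes summed to 8180.1 CPM in PCI34051+NEC, 3671 CPM in NEC and 7985 CPM in control. In NEC over control their log2 folds ran from -2.75 (Epcam) to 3.53 (Krt19), with an SD across genes of 1.70, and 10 of 12 were lower. The 12 absorptive enterocyte genes summed to 110060.0 CPM in PCI34051+NEC, 20782 CPM in NEC and 43681 CPM in control, and the 9 smooth muscle genes to 1490.0 CPM in PCI34051+NEC, 12022 CPM in NEC and 1552 CPM in control. In bulk tissue, fewer cells of a type and less RNA per cell cannot be told apart. Of 10 hepatocyte genes, 7 were at least 2-fold higher in NEC than in control, with Alb at 0.394 CPM in PCI34051+NEC, 100.4 CPM in NEC and 9.31 CPM in control. The hepatocyte sum was 229 CPM in PCI34051+NEC, 221 CPM in NEC and 390.2 CPM in control, most of it Ttr in PCI34051+NEC and control and not in NEC. All 5 pancreatic acinar genes were at 0 counts in NEC and control, and 4 of 5 in PCI34051+NEC. The 6 adipocyte genes summed to 318 CPM in PCI34051+NEC, 87.9 CPM in NEC and 144 CPM in control, nearly all of it Cidec. Of that list Adipoq, Plin1, Lep and Cfd were at 0 counts in PCI34051+NEC and control, and at 14, 20, 3 and 2 counts in NEC. The part of tissue make-up in the differences below was not tested, beyond 1 alternative that scales each comparison to the median fold of the pan-epithelial genes, and that median carries their spread.

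Summed over the 36 genes, the level was 6653 CPM in PCI34051+NEC, 2182 CPM in NEC and 4413 CPM in control. That was 0.614% of all counts in PCI34051+NEC, 0.224% in NEC and 0.465% in control. In PCI34051+NEC, 26 of the 36 genes (72.2%) had their highest level of the 3 libraries, where 30.4% of all measured genes did. In NEC, 24 (66.7%) had their lowest level, where 43.5% of all measured genes did. Control held the highest level of 7 (19.4%, and 27.2% of all measured genes) and the lowest of 9 (25.0%, near the 26.2% of all measured genes). Those 9 were Ppara, Ppargc1a, Pdk4, Vnn1, Angptl4, Acot5, Acot12, Acaa1b and Eci2.

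**Figure D1:**
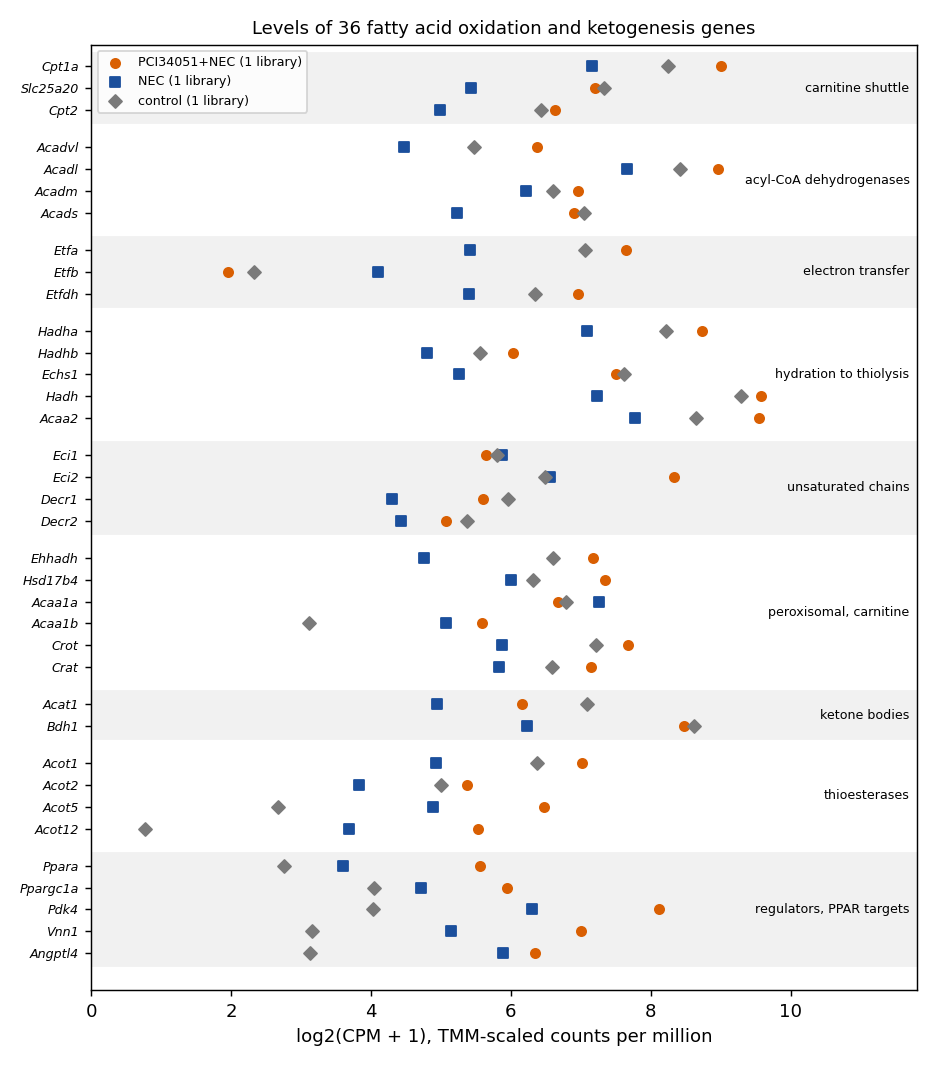
Levels of the 36 genes as log2(CPM + 1) on the horizontal axis, in rows grouped by role, with 1 point per library: PCI34051+NEC (orange circles), NEC (blue squares) and control (grey diamonds). Most enzyme rows have the NEC point leftmost, as for Hadh at 765 CPM in PCI34051+NEC, 149.8 CPM in NEC and 624 CPM in control, whereas the 5 rows of regulators and PPAR targets have the control point leftmost, as for Pdk4 at 276 CPM in PCI34051+NEC, 78.2 CPM in NEC and 15.3 CPM in control. Scaled to the pan-epithelial genes, not drawn, 10 genes that here lie lower in NEC than in control would lie higher.

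The comparison of NEC with control asks how the model differs from dam feeding. Most oxidation enzymes were lower in NEC with the main scaling and not with the pan-epithelial one. Pdk4, Vnn1 and Angptl4, targets of PPAR-alpha, were higher under both. Ehhadh and Acaa1b, PPAR-alpha targets in rodent liver, were divided, with Ehhadh lower under both and Acaa1b higher under both. At 2-fold or more, 16 of 36 genes lay below control (background 22.9% of 14627 measured genes) and 7 above it (background 24.2%, and 47.1% in either direction). Of those 7, Acot12 was below 1 CPM in control and passed the filter through NEC alone. The median log2 fold was -0.91 on the log2(CPM + 1) scale, against -0.026 over all genes, -1.13 for the pan-epithelial genes and -0.84 for the absorptive enterocyte genes. Scaled to the pan-epithelial genes, the median turned round to 0.21, with Echs1, Acat1 and Bdh1 as the 3 genes still 2-fold below control and 12 genes 2-fold above it. Under that scaling 6.17% of all measured genes lay 2-fold below control and 51.7% above it, with a median of 1.03, so the members' median stayed below that of all genes. Of the 36, 11 changed direction under at least 1 alternative, 10 of them under this scaling and Acaa1a with the length and GC trend removed.

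The comparison of PCI34051+NEC with NEC sets libraries with and without the inhibitor side by side within the regimen. These libraries also differed in Eif2s3y counts, mitochondrially encoded share, smooth muscle sum and Alb, as given above. The inhibitor cannot be told apart from sex, tissue make-up or differences between pups. Most of the list was higher in PCI34051+NEC, though Acadm, Decr2, Acaa1b and Angptl4 were lower under the pan-epithelial scaling. At 2-fold or more, 29 of 36 genes lay above NEC (background 25.0% of 14410 genes) and Etfb alone below it (background 25.6%, and 50.6% in either direction). The median log2 fold was 1.65, against 0.0060 over all genes, 0.97 for the pan-epithelial and 2.42 for the absorptive enterocyte genes. Scaled to the pan-epithelial genes it was 0.68. Then 7 genes lay 2-fold or more above NEC (Etfa, Echs1, Hadh, Ehhadh, Bdh1, Acot1 and Ppara) and 3 below it (Etfb, Eci1 and Acaa1a), where 6.93% of all measured genes lay above and 44.8% below, with a median of -0.84. The NEC library enters both this comparison and that of NEC with control, so they are not independent.

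The comparison of PCI34051+NEC with control leaves the NEC library out. These libraries differ in the inhibitor and in the whole regimen. The inhibitor cannot be told apart here from formula, hypoxia, cold, not staying with the dam, or differences between pups. Nor can it be told apart from the stretch of intestine sampled, which was not given. The pan-epithelial and smooth muscle sums of these libraries were close, as given above, but the absorptive enterocyte sum was higher in PCI34051+NEC. Most of that sum was Apoa4 and Apoa1, at 58772 and 31024 CPM in PCI34051+NEC and 20142 and 13701 CPM in control. Of its 12 genes, 8 lay 2-fold or more above control and 0 as far below it, where 6.55% of all measured genes lay each way. At any size of fold, 10 of the 12 lay above control and 2 below it. The list also holds Fabp2, which is counted again among the other pathway genes. At 2-fold or more, 10 of 36 genes lay above control (background 6.55% of 13652 genes) and 0 below it (background also 6.55%, and 13.1% in either direction). That count of 0 comes without a test and became 1 (Acat1) with total-count scaling, a 1.5-fold threshold or the length and GC trend removed. The median log2 fold was 0.55, against -0.00080 over all genes, -0.0063 for the pan-epithelial and 1.14 for the absorptive enterocyte genes. The 10 were the 5 regulators and PPAR targets, with Acot12, Acot5, Acaa1b, Eci2 and Hsd17b4. Of these, Acot12 was below 1 CPM in control and passed the filter through PCI34051+NEC alone.

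**Figure D2:**
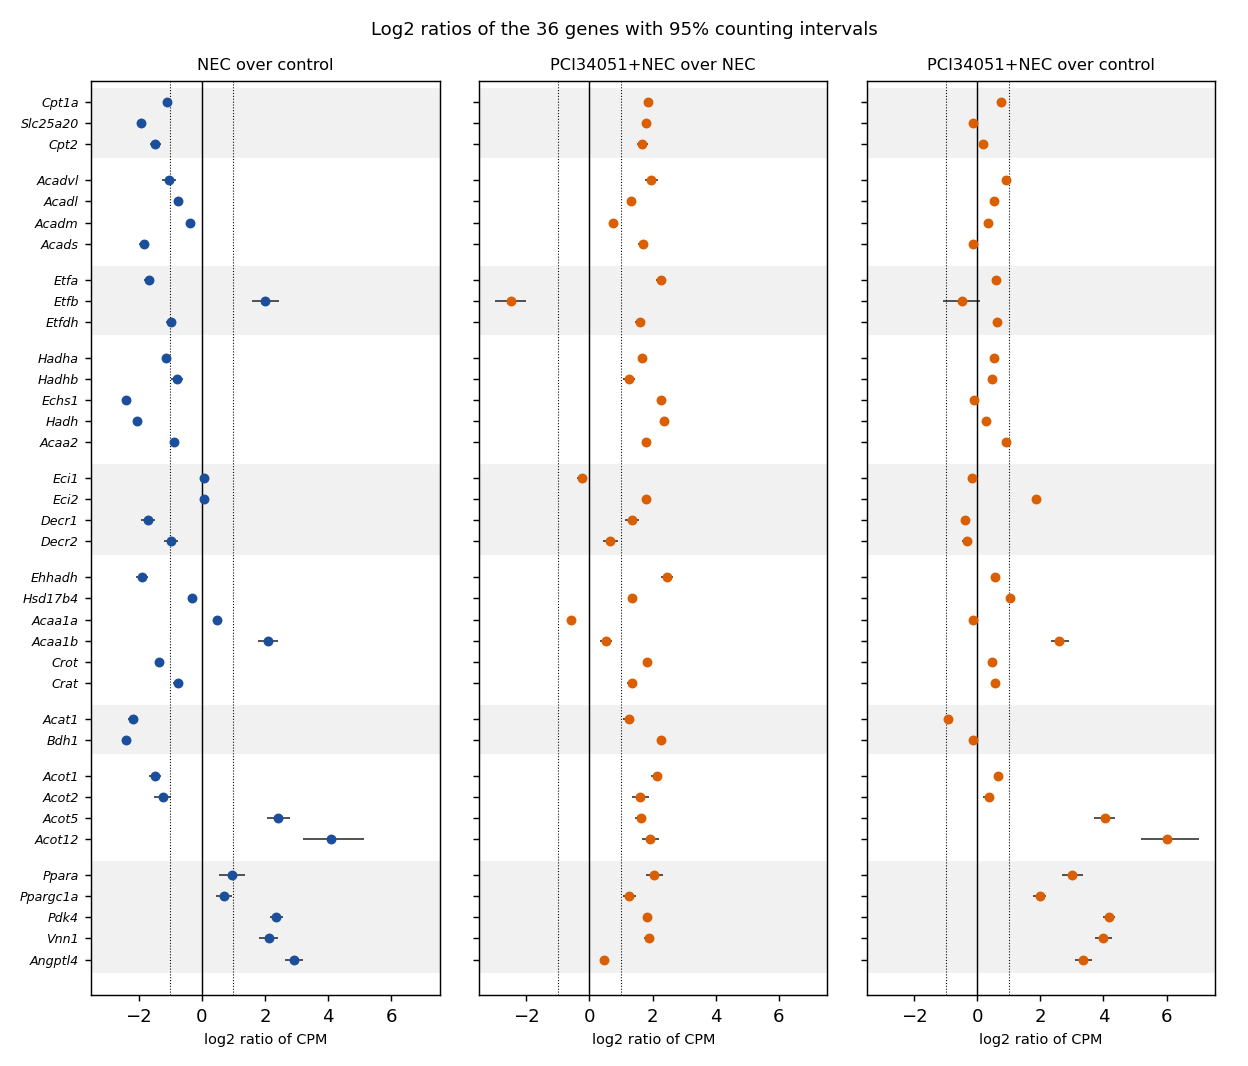
Log2 ratios of CPM for the 36 genes in the 3 comparisons, with 95% counting intervals as bars (many are shorter than the points), a solid line at 0 and dotted lines at 2-fold. In the middle panel 29 points lie beyond 2-fold to the right and only Etfb beyond 2-fold to the left. With the pan-epithelial scaling, not drawn, 7 genes of the middle panel were 2-fold or more higher and 3 lower. Under that scaling the left panel's median log2 fold moves to 0.21.

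The 5 genes grouped as regulators and PPAR-alpha targets were all highest in PCI34051+NEC and lowest in control. The exception was Angptl4, highest in NEC under the pan-epithelial scaling. The group leaves out other members that are PPAR-alpha targets, such as Ehhadh and Acaa1b, described below. Ppara itself (ENSMUSG00000022383, chromosome 15, 85734983 to 85802819, plus strand, mm10), which encodes PPAR-alpha, was at 46.3 CPM in PCI34051+NEC, 11.1 CPM in NEC and 5.73 CPM in control. It was 1.95-fold (1.47 to 2.58) higher in NEC than in control, 4.16-fold (3.42 to 5.08) higher in PCI34051+NEC than in NEC and 8.09-fold (6.49 to 10.2) higher in PCI34051+NEC than in control. Ppargc1a, which encodes the coactivator PGC-1alpha that drives mitochondrial biogenesis, was at 60.8 CPM in PCI34051+NEC, 25.3 CPM in NEC and 15.4 CPM in control. Its ratio was 1.64-fold (1.38 to 1.96) for NEC over control and 3.94-fold (3.42 to 4.56) for PCI34051+NEC over control.

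Pdk4 (ENSMUSG00000019577, chromosome 6, 5483351 to 5496309, minus strand) encodes the kinase that shuts pyruvate dehydrogenase and so spares glucose when fat is burnt. It was at 276 CPM in PCI34051+NEC, 78.2 CPM in NEC and 15.3 CPM in control. Pdk4 was 5.11-fold (4.43 to 5.92) higher in NEC than in control and 3.52-fold (3.27 to 3.80) higher in PCI34051+NEC than in NEC. Vnn1, the pantetheinase vanin-1 that recycles the vitamin part of coenzyme A, was at 127 CPM in PCI34051+NEC, 34.3 CPM in NEC and 7.93 CPM in control. Its ratio was 4.33-fold (3.53 to 5.34) for NEC over control, 3.69-fold (3.30 to 4.13) for PCI34051+NEC over NEC and 15.97-fold (13.3 to 19.3) for PCI34051+NEC over control. Angptl4, a secreted inhibitor of lipoprotein lipase, was at 79.9 CPM in PCI34051+NEC, 57.99 CPM in NEC and 7.74 CPM in control. Its ratio between the formula-fed libraries was 1.38-fold (1.25 to 1.52) for PCI34051+NEC over NEC, and with the pan-epithelial scaling the log2 fold turned to -0.50. Over control it stood 7.49-fold (6.17 to 9.16) higher in NEC and 10.3-fold (8.58 to 12.5) higher in PCI34051+NEC. Pdk4 and Angptl4 are also known glucocorticoid targets. The 5 genes kept their direction in the comparisons with control under every scaling and pseudocount tried.

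The acyl-CoA thioesterases, which release free fatty acids from coenzyme A, divided into those at low level in control and those that were not. Acot12, an acetyl-CoA hydrolase best known from liver, was at 45.1 CPM in PCI34051+NEC, 11.9 CPM in NEC and 0.692 CPM in control, or 687, 130 and 11 counts in that order of libraries. Acot12 was 17.1-fold (9.28 to 35.2) higher in NEC and 65.2-fold (36.2 to 131) higher in PCI34051+NEC than in control, the widest of the 36 ratios. Being below 1 CPM in control, Acot12 passed the filter in both of these comparisons through the other library alone. Acot5, a peroxisomal medium-chain thioesterase, was at 87.7 CPM in PCI34051+NEC, 28.6 CPM in NEC and 5.35 CPM in control. That was 5.34-fold (4.19 to 6.88) higher in NEC and 16.4-fold (13.2 to 20.7) higher in PCI34051+NEC than in control. The cytosolic long-chain thioesterase Acot1 was at 128 CPM in PCI34051+NEC, 29.3 CPM in NEC and 81.7 CPM in control. Its mitochondrial neighbour Acot2 was at 40.3 CPM in PCI34051+NEC, 13.2 CPM in NEC and 31.1 CPM in control. Both were lower in NEC than in control, Acot1 2.79-fold (2.46 to 3.16) and Acot2 2.35-fold (1.95 to 2.84), and both were higher in PCI34051+NEC than in NEC, Acot1 4.37-fold (3.88 to 4.93) and Acot2 3.04-fold (2.53 to 3.67). Per base of transcript, the level of Acot5 relative to Acot1 was 1.02 (0.955 to 1.10) in PCI34051+NEC, 1.46 (1.25 to 1.71) in NEC and 0.0979 (0.0777 to 0.122) in control. The Acot genes of chromosome 12 are close copies: 12.5% of the 100-base windows of Acot1, 17.1% of Acot2 and 8.32% of Acot5 occur in another gene, so their counts are uncertain.

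PPAR-alpha binds DNA with its partner RXR at direct repeats of AGGTCA with 1 base between them, so the windows from 250 bases before to 50 bases after the RefSeq starts (GRCm38.p6) were searched on both strands. Windows were found for 29 of the 36 genes (31 windows). No member matched exactly, 1 gene matched with at most 1 mismatch (0.554% of 32851 mouse windows do) and 4 genes matched with at most 2 mismatches (3.86% of all windows do). The 4 windows are shown because they hold these matches, and each is written along its own gene, 5′ to 3′, with the match in capitals. Acot12 lies at chr13:91741271-91741570 (plus strand), Slc25a20 at chr9:108661886-108662185 (plus strand), Etfa at chr9:55512194-55512493 (minus strand) and Echs1 at chr7:140116372-140116671 (minus strand).
Acot12: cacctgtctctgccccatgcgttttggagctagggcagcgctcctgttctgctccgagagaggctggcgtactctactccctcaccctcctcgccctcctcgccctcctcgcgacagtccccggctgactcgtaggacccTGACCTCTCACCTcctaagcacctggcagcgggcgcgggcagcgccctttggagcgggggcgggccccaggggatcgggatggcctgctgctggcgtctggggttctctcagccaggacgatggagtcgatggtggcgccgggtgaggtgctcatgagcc
Slc25a20: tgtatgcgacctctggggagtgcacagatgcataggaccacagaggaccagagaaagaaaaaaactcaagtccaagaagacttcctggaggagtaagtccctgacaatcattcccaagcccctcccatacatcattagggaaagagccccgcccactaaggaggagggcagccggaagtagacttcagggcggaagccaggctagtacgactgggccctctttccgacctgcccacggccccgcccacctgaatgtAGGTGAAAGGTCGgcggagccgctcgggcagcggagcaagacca
Etfa: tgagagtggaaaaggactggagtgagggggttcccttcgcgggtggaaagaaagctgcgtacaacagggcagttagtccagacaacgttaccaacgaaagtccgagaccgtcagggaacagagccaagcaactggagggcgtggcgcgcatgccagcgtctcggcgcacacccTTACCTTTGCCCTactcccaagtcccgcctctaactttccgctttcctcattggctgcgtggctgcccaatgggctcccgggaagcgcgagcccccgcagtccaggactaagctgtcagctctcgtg
Echs1: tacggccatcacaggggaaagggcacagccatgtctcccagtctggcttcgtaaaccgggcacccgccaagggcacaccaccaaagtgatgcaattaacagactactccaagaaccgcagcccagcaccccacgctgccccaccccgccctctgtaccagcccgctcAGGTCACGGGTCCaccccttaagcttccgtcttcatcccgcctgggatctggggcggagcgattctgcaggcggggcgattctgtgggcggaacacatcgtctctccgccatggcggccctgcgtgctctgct
Read in the direction of the repeat, the matches are AGGTGAGAGGTCA in Acot12 (1 mismatch, opposite strand), AGGTGAAAGGTCG in Slc25a20, AGGGCAAAGGTAA in Etfa (opposite strand) and AGGTCACGGGTCC in Echs1, the last 3 with 2 mismatches. They begin 110 bases upstream of the start in Acot12, 77 in Etfa and 83 in Echs1, and 6 bases downstream of it in Slc25a20. Of these genes Acot12 was lowest in control and the rest were lowest in NEC. The glucocorticoid receptor's palindrome, AGAACA and TGTTCT with 3 bases between them, was found in no member window with at most 2 mismatches, where 1.84% of all windows hold it. A match describes these letters and not binding.

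The carnitine shuttle was lower in NEC than in the other libraries, apart from Cpt1a under the pan-epithelial scaling, where it was level with control. Cpt1a (ENSMUSG00000024900, chromosome 19, 3322334 to 3385733, plus strand), the outer-membrane transferase that sets the pace of fatty acid entry, was at 515 CPM in PCI34051+NEC, 142 CPM in NEC and 303 CPM in control. It was 2.13-fold (2.01 to 2.26) lower in NEC than in control and 3.63-fold (3.43 to 3.83) higher in PCI34051+NEC than in NEC, and stood 1.70-fold (1.64 to 1.76) higher in PCI34051+NEC than in control. Scaled to the pan-epithelial genes, its NEC over control log2 fold was 0.040. Slc25a20, the translocase whose window is printed above, was at 146 CPM in PCI34051+NEC, 42.1 CPM in NEC and 159.6 CPM in control, 3.79-fold (3.43 to 4.19) lower in NEC than in control. Cpt2, the inner-membrane transferase, was at 97.8 CPM in PCI34051+NEC, 30.6 CPM in NEC and 85.1 CPM in control. Per base of transcript the Cpt1a to Cpt2 ratio was 2.89 (2.74 to 3.06) in PCI34051+NEC, 2.55 (2.26 to 2.88) in NEC and 1.95 (1.84 to 2.08) in control. Control leaned least to Cpt1a, and the counting intervals of PCI34051+NEC and NEC overlapped.

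The acyl-CoA dehydrogenases, which differ in the chain length they take, were lower in NEC than in control by unlike amounts, and only Acads stayed lower under the pan-epithelial scaling. The long-chain Acadl was at 497 CPM in PCI34051+NEC, 201 CPM in NEC and 341 CPM in control. The very-long-chain Acadvl was at 82.2 CPM in PCI34051+NEC, 21.2 CPM in NEC and 43.5 CPM in control. All 4 had their lowest level in NEC with the main scaling. The medium-chain Acadm was at 123 CPM in PCI34051+NEC, 73.4 CPM in NEC and 96.02 CPM in control. The short-chain Acads was at 119 CPM in PCI34051+NEC, 36.3 CPM in NEC and 130.5 CPM in control. In NEC against control, Acads was 3.59-fold (3.22 to 4.01) lower and Acadm only 1.31-fold (1.20 to 1.43) lower. Acadm, Acadl and Acadvl changed direction in that comparison under the pan-epithelial scaling, with log2 folds of 0.74, 0.37 and 0.092, and Acads did not, at -0.70. In PCI34051+NEC against NEC, Acadvl was 3.88-fold (3.37 to 4.49) higher, Acads 3.27-fold (2.93 to 3.65), Acadl 2.47-fold (2.35 to 2.59) and Acadm 1.68-fold (1.54 to 1.82). Exons of Acadvl overlap those of Dvl2 on the other strand over 42.9% of their bases, so its counts are uncertain.

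The dehydrogenases hand their electrons to the flavoprotein ETF, a pair of subunits, and on to its oxidoreductase. Etfa, the alpha subunit, was at 199 CPM in PCI34051+NEC, 41.6 CPM in NEC and 132 CPM in control. Etfdh, the oxidoreductase, was at 124 CPM in PCI34051+NEC, 41.2 CPM in NEC and 80.2 CPM in control. Both were lowest in NEC and highest in PCI34051+NEC, though Etfdh was lowest in control under the pan-epithelial scaling. Etfb, the beta subunit, went the other way at 2.89 CPM in PCI34051+NEC, 16.2 CPM in NEC and 4.03 CPM in control, with 44, 177 and 64 counts. It was 4.01-fold (3.0 to 5.43) higher in NEC than in control and 5.59-fold (4.0 to 7.97) lower in PCI34051+NEC than in NEC. Per base of transcript, the ratio of Etfa to Etfb was 44.2 (32.8 to 60.9) in PCI34051+NEC, 1.65 (1.38 to 1.97) in NEC and 21.1 (16.4 to 27.5) in control. Exons of Etfb lie to 58.3% of their bases within those of Gm45233, a gene on the same strand, and 65.2% of its 100-base windows occur there too. Its values are uncertain in all 3 libraries.

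Hydration, the second oxidation and thiolysis held the most abundant transcripts of the 36 in PCI34051+NEC and control. Per kilobase of transcript, Acaa2, the mitochondrial thiolase, was at 495 CPM per kb in PCI34051+NEC, 143 CPM per kb in NEC and 264 CPM per kb in control. Hadh, the short-chain hydroxyacyl dehydrogenase, was at 428 CPM per kb in PCI34051+NEC, 83.7 CPM per kb in NEC and 349 CPM per kb in control. These 2 genes led the 36 in PCI34051+NEC and in control, while Acaa2 and Acadl led in NEC. In CPM, Hadh was 4.17-fold (3.95 to 4.39) lower in NEC than in control, and 5.11-fold (4.85 to 5.38) higher in PCI34051+NEC than in NEC. Echs1, the short-chain enoyl hydratase, was at 181 CPM in PCI34051+NEC, 37.3 CPM in NEC and 195 CPM in control, 5.23-fold (4.72 to 5.82) lower in NEC than in control and 4.84-fold (4.37 to 5.39) higher in PCI34051+NEC than in NEC. Its lower level in NEC was kept under the pan-epithelial scaling, at a log2 fold of -1.24.

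Hadha and Hadhb encode the alpha and beta subunits of the mitochondrial trifunctional protein, which handles long chains, and are transcribed in opposite directions from one shared stretch of chromosome 5. Hadha was at 425 CPM in PCI34051+NEC, 135 CPM in NEC and 296 CPM in control. Hadhb was at 64.05 CPM in PCI34051+NEC, 26.9 CPM in NEC and 46.2 CPM in control. Against NEC, PCI34051+NEC was 3.15-fold (2.98 to 3.34) higher for Hadha and 2.38-fold (2.09 to 2.73) higher for Hadhb. Against control, it was 1.44-fold (1.38 to 1.49) higher for Hadha and 1.39-fold (1.26 to 1.53) higher for Hadhb. Per base of transcript, Hadha stood above Hadhb in each library, with a ratio of 3.36 (3.14 to 3.60) in PCI34051+NEC, 2.54 (2.24 to 2.89) in NEC and 3.24 (2.999 to 3.51) in control. The RefSeq starts are 273 bases apart, and the window of Hadhb (chr5:30155003-30155302, plus strand, GRCm38.p6) is shown because it spans most of that stretch, with capitals for the bases between the start sites.
Hadhb: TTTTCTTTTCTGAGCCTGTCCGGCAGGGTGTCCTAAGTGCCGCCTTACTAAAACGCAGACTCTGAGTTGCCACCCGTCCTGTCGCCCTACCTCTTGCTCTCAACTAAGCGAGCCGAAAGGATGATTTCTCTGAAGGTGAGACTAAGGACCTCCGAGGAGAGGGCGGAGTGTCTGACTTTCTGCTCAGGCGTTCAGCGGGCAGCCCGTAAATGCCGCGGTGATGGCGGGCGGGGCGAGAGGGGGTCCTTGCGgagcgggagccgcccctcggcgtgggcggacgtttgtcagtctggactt

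Enzymes that prepare unsaturated chains did not move as a block. Eci2, a delta-isomerase of mitochondria and peroxisomes, was at 322 CPM in PCI34051+NEC, 92.8 CPM in NEC and 88.5 CPM in control, 1.05-fold (0.967 to 1.14) in NEC over control and 3.64-fold (3.43 to 3.87) higher in PCI34051+NEC than in control. Eci1, the mitochondrial isomerase, was at 49.2 CPM in PCI34051+NEC, 57.8 CPM in NEC and 54.6 CPM in control, with ratios of 1.06-fold (0.955 to 1.18) for NEC over control and 0.902-fold (0.817 to 0.996) for PCI34051+NEC over control. Of the Eci2 windows 6.70% occur in other genes, so its counts are uncertain. Decr1, the mitochondrial dienoyl reductase, was at 47.3 CPM in PCI34051+NEC, 18.7 CPM in NEC and 61.4 CPM in control. Decr2, its peroxisomal counterpart, was at 32.5 CPM in PCI34051+NEC, 20.5 CPM in NEC and 40.5 CPM in control. Both reductases were highest in control and lowest in NEC, though with the pan-epithelial scaling Decr2 was highest in NEC.

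In the peroxisomal set, the bifunctional enzymes were higher in PCI34051+NEC than in NEC, and the thiolase copies differed from one another. Ehhadh, the L-bifunctional enzyme and a classic PPAR-alpha target in rodent liver, was at 143 CPM in PCI34051+NEC, 26.03 CPM in NEC and 96.4 CPM in control. It was 3.70-fold (3.26 to 4.22) lower in NEC than in control and 5.48-fold (4.84 to 6.22) higher in PCI34051+NEC than in NEC, the largest ratio of the 36 in that comparison. Hsd17b4, the D-bifunctional enzyme for branched and very long chains, was at 161 CPM in PCI34051+NEC, 62.9 CPM in NEC and 78.3 CPM in control, 2.06-fold (1.92 to 2.20) higher in PCI34051+NEC than in control. The per-base ratio of Ehhadh to Hsd17b4 was 0.799 (0.754 to 0.847) in PCI34051+NEC, 0.372 (0.323 to 0.428) in NEC and 1.11 (1.03 to 1.20) in control.

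The peroxisomal thiolase has 2 gene copies in the mouse. Acaa1a was at 101 CPM in PCI34051+NEC, 152 CPM in NEC and 110.0 CPM in control, highest in NEC, though with the length and GC trend removed it was lower there than in control. Acaa1b, the copy that PPAR-alpha agonists induce in rodent liver, was at 46.8 CPM in PCI34051+NEC, 32.7 CPM in NEC and 7.68 CPM in control, 4.26-fold (3.46 to 5.28) higher in NEC and 6.10-fold (5.03 to 7.46) higher in PCI34051+NEC than in control. The per-base ratio of Acaa1a to Acaa1b was 2.06 (1.89 to 2.26) in PCI34051+NEC, 4.45 (3.97 to 5.002) in NEC and 13.7 (11.4 to 16.6) in control. Of their 100-base windows, 9.75% in Acaa1a and 30.5% in Acaa1b occur in another gene, the other copy among them, so the split between them is uncertain. Crot, which passes shortened chains from peroxisomes to carnitine, was at 204 CPM in PCI34051+NEC, 57.4 CPM in NEC and 147 CPM in control. Crat, which moves acetyl groups to carnitine, was at 141 CPM in PCI34051+NEC, 55.7 CPM in NEC and 94.9 CPM in control. Both were lowest in NEC, though Crat was lowest in control under the pan-epithelial scaling, and in PCI34051+NEC over control the ratios were 1.38-fold (1.31 to 1.46) for Crot and 1.48-fold (1.39 to 1.58) for Crat.

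Of the ketone body genes, Bdh1, Acat1, Oxct1 and the transporter gene Slc16a1, given further below, lay 2-fold or more below control in NEC. Bdh2, from the other pathway genes, lay 2-fold or more above control, with 39 counts in NEC and 16 in control. Bdh1 (ENSMUSG00000046598, chromosome 16, 31422280 to 31458901, plus strand), which interconverts acetoacetate and 3-hydroxybutyrate, was at 356 CPM in PCI34051+NEC, 74.2 CPM in NEC and 392 CPM in control. It was 5.28-fold (4.91 to 5.69) lower in NEC than in control, and 4.79-fold (4.45 to 5.16) higher in PCI34051+NEC than in NEC. An antisense gene, Gm15743, covers 13.7% of its exon bases, so its counts are uncertain. Acat1, the mitochondrial acetoacetyl-CoA thiolase, was at 70.6 CPM in PCI34051+NEC, 29.9 CPM in NEC and 135 CPM in control, 4.51-fold (4.01 to 5.08) lower in NEC and 1.91-fold (1.77 to 2.06) lower in PCI34051+NEC than in control. Of the 36, Acat1 lay furthest below control in PCI34051+NEC under each scaling and pseudocount. From the list of other pathway genes, Oxct1, the enzyme that spends ketone bodies outside the liver, was at 18.9 CPM in PCI34051+NEC, 18.8 CPM in NEC and 78.02 CPM in control, 4.14-fold (3.64 to 4.72) lower in PCI34051+NEC than in control. The per-base ratio of Bdh1 to Oxct1 was 38.9 (34.5 to 43.9) in PCI34051+NEC, 8.13 (6.97 to 9.53) in NEC and 10.4 (9.74 to 11.02) in control.

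**Figure D3:**
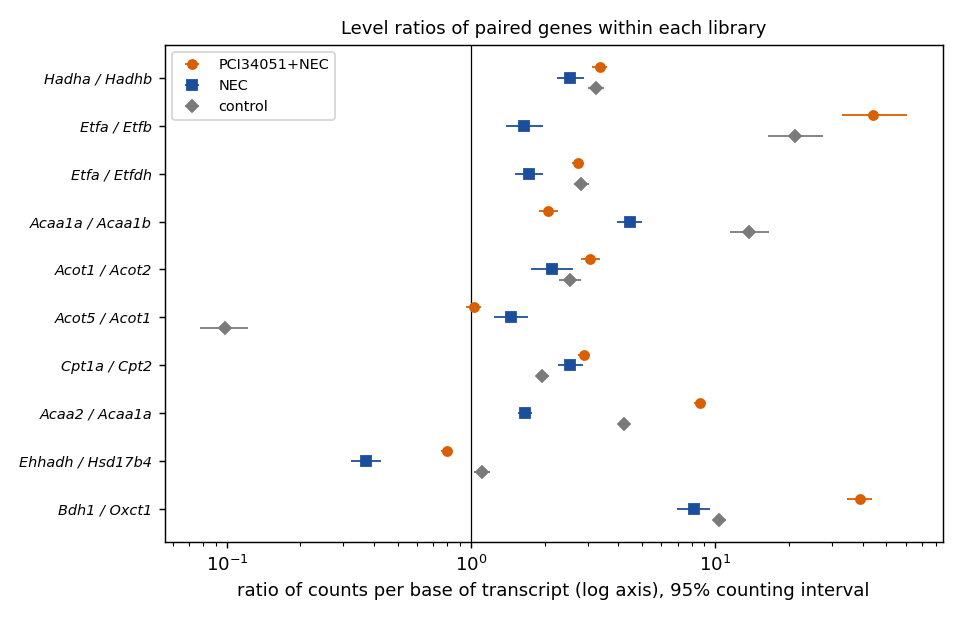
Ratios of counts per base of transcript between paired genes within each library (log axis), with 95% counting intervals, for PCI34051+NEC (orange circles), NEC (blue squares) and control (grey diamonds). The Acaa1a to Acaa1b ratio is lowest in PCI34051+NEC, at 2.06 (1.89 to 2.26), and highest in control, at 13.7 (11.4 to 16.6). The Bdh1 to Oxct1 ratio is highest in PCI34051+NEC, at 38.9 (34.5 to 43.9). Acaa1a, Acaa1b and Bdh1 are among the genes of uncertain counts. These ratios do not depend on the scaling between libraries, but the length and GC trend was not removed from them.

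The other pathway genes, 80 in the table, were counted by the same thresholds. In NEC over control, 26 of 74 measured lay at 2-fold or more below control (22.9% of all measured genes did) and 11 above it (24.2% of all). Of those 11, Cyp4a10, Cyp4a14, Cyp4a32, Plin5, Acsl6 and Fabp1 were below 1 CPM in control and passed the filter through NEC alone. At 5 CPM or more, 6 lay above. The median log2 fold of the 74 was -0.57, which turned to 0.54 with the pan-epithelial scaling. In PCI34051+NEC over NEC, 33 of 73 lay at 2-fold or more above NEC (25.0% of all) and 7 below it (25.6% of all). Of those 7, 3 had 0 counts in PCI34051+NEC and passed the filter through NEC alone, and at 5 CPM or more 4 lay below. The median of the 73 was 0.86, which turned to -0.089 with that scaling. In PCI34051+NEC over control, 10 of 68 lay at 2-fold or more above control and 2 below it (6.55% of all each way), and the median was 0.27. The medians were the same with genes at 0 counts set at a floor of 3 counts per library.

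Among the other peroxisomal genes, 11 of 20 lay 2-fold or more below control in NEC (22.9% of all) and 1 above it (24.2% of all). Acox2, the oxidase for branched chains and bile acid precursors, was at 107 CPM in PCI34051+NEC, 23.7 CPM in NEC and 129 CPM in control. The gene that was higher, Slc27a2, a very-long-chain acyl-CoA synthetase, was at 22.2 CPM in PCI34051+NEC, 39.2 CPM in NEC and 4.84 CPM in control. Among the other mitochondrial and activating enzymes, 8 of 21 lay 2-fold or more below control in NEC and 2 above it, beside the same shares of all genes. Pdk3, a pyruvate dehydrogenase kinase like Pdk4, was at 26.5 CPM in PCI34051+NEC, 3.65 CPM in NEC and 42.3 CPM in control, and so ran opposite to Pdk4 in NEC against control. Acsf2, an acyl-CoA synthetase, was at 34.9 CPM in PCI34051+NEC, 8.13 CPM in NEC and 59.02 CPM in control. Acad11, an acyl-CoA dehydrogenase, was at 138 CPM in PCI34051+NEC, 21.5 CPM in NEC and 95.3 CPM in control. Acsl3, a long-chain acyl-CoA synthetase, was at 442 CPM in PCI34051+NEC, 90.3 CPM in NEC and 244 CPM in control. The genes that were higher in NEC were Acsl6 and Acacb. Acsl6, a long-chain synthetase, was at 1.25 CPM in PCI34051+NEC, 13.2 CPM in NEC and 0.566 CPM in control. Acacb, whose product makes the CPT1 inhibitor malonyl-CoA, was at 6.83 CPM in PCI34051+NEC, 14.9 CPM in NEC and 3.71 CPM in control. Slc16a1, listed with the ketone body genes, encodes the monocarboxylate transporter MCT1 that also carries ketone bodies. It was at 73.2 CPM in PCI34051+NEC, 15.7 CPM in NEC and 69.2 CPM in control.

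**Figure D4:**
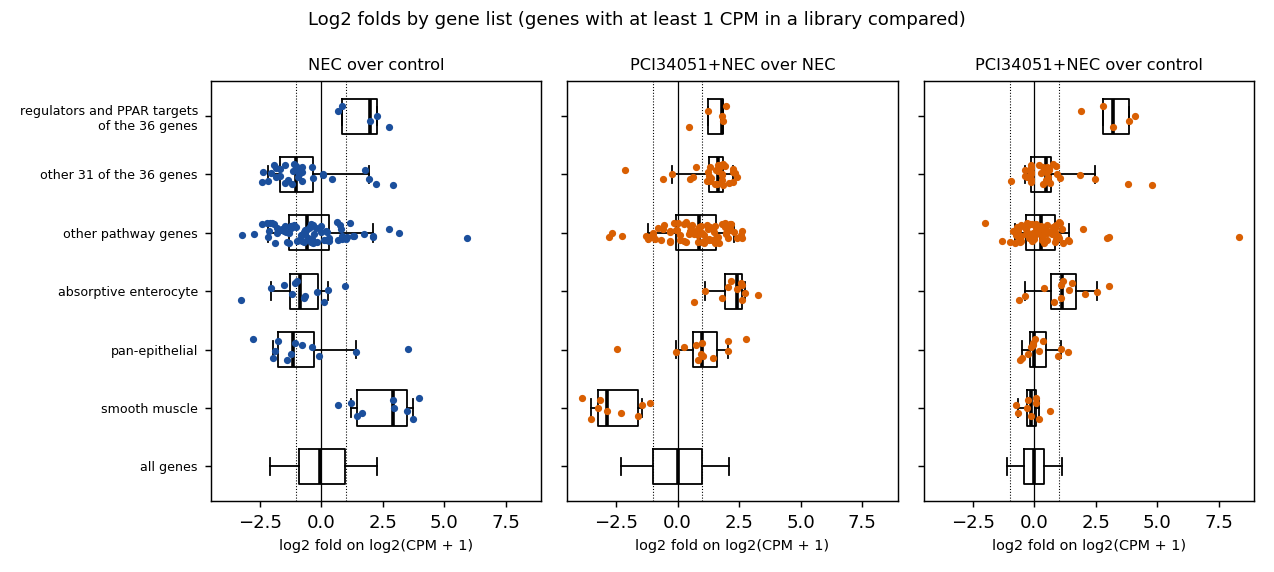
Log2 folds on the log2(CPM + 1) scale by gene list in the 3 comparisons, with boxes for quartiles, thick lines for medians, whiskers for the 5th to 95th percentile and a point per gene (none drawn for all genes). The regulators and PPAR targets drawn are Ppara, Ppargc1a, Pdk4, Vnn1 and Angptl4. They have medians of 1.98, 1.80 and 3.21 from left to right, and the other 31 genes -1.01, 1.64 and 0.46. Those 31 also hold PPAR-alpha targets, such as Ehhadh at -1.85 and Acaa1b at 1.96 in the left panel. The median of the 31 in that panel lies near the pan-epithelial -1.13, and is 0.12 once that is subtracted.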

How the data were processed

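RNA-seq counts were available for 3 libraries of mouse intestine, 1 per group. The authors deposited raw read counts per gene symbol, and the submitters' processing notes name build mm10. For the aligner, annotation, strand setting and filters, the entry is not given in the sources used here. Reads were 150 bp and paired, per the labels' protocols. The control and NEC columns matched their samples by name. The third column spells the inhibitor unlike the sample's description and was assigned because no other column names an inhibitor, and every PCI34051+NEC value rests on that.

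TMM scaling came from edgeR 4.0.16 under R 4.3.3 and gave factors of 0.923 (PCI34051+NEC), 1.03 (NEC) and 1.05 (control). A floor of 3 counts was 0.197, 0.274 and 0.189 CPM in those libraries. Log2 folds used CPM plus 1, which understates the difference of low genes. Ratios are of plain CPM, and their 95% intervals are Clopper-Pearson bounds on a gene's counts split between both libraries. Because PCR copies could not be removed by molecular identifiers, intervals and floors describe counting error alone. A gene was measured with at least 1 CPM in a library compared and called at 2-fold. With 1 library per group no test was possible. The calculation was tested on simulated data. The alternatives tried were size factors of DESeq2 1.42.0, scaling to total counts, TMM after dropping both the top 50 genes by abundance and those encoded in mitochondria, pan-epithelial scaling, removal of the length and GC trend (30 bins each), pseudocounts of 0.25 and 4, other filters and a 1.5-fold threshold. Leaving out members of uncertain counts and TMM without NEC were added after seeing the data.

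Of 21983 symbols, 21926 (99.7%) matched GENCODE M21, which gave identifiers, coordinates, overlaps and transcript lengths (APPRIS principal transcript). Counts were called uncertain where over 10% of exon bases overlap another gene or over 5% of 100-base windows occur in one (9 members). Promoter windows came from RefSeq. The members and lists were chosen with earlier results of these data known. All members are described. From the pathway list, up to 6 genes each way per comparison are named by size of fold, at 5 CPM or more and 2-fold apart. Oxct1 is named whatever its value, and Bdh2, below 5 CPM, is named as well. Some genes that the rule names are not reported here. Calculations ran in Python 3.11.15 (scipy 1.17.1), and figures were drawn in matplotlib 3.10.9.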

Additional observations from a re-analysis of the deposited data

How the results depend on the processing

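No paired analysis was possible because each group has 1 library, and for the same reason no library could be left out within a group. Of 189 recomputed counts and medians, 157 kept their size (counts within 1.5 times, medians within their genes' median counting interval), 32 moved, and the cause was not tested. Moves were most numerous with scaling to the pan-epithelial genes. In NEC over control it gave 12 members higher, 3 lower and a median of 0.21, and 28 pathway genes higher, 6 lower and a median of 0.54. Cpt1a and Acadvl reversed there, to 0.040 and 0.092. In PCI34051+NEC over NEC it gave 7 members higher, 3 lower and a median of 0.68, and 12 pathway genes higher, 15 lower and a median of -0.089. Total counts gave a member median of 1.49 in PCI34051+NEC over NEC. In PCI34051+NEC over control they gave a member median of 0.36, 1 member lower, 6 pathway genes higher, 4 lower and a pathway median of 0.081. That scaling shifted the median of all genes to -0.14 in PCI34051+NEC over NEC and to -0.18 in PCI34051+NEC over control, and the pan-epithelial scaling to 1.03 in NEC over control and -0.84 in PCI34051+NEC over NEC. In PCI34051+NEC over control, 1 member was lower with the length and GC trend removed and 1 at a 1.5-fold threshold, which also gave 22 pathway genes higher and 11 lower; a pseudocount of 0.25 gave 4 lower. In NEC over control, pathway genes higher numbered 5 with a pseudocount of 4, 6 at 5 CPM or more and 18 at 1.5-fold. In PCI34051+NEC over NEC, pathway genes lower numbered 3 with a pseudocount of 4, 4 at 5 CPM or more (median 1.07) and 11 at 1.5-fold. Without the 9 members of uncertain counts, 4 of 27 were higher in NEC over control and 0 were lower in PCI34051+NEC over NEC. TMM without the NEC library moved no count or median of PCI34051+NEC over control. Depth limits Acot12 and Etfb most, with 11 counts in control and 44 in PCI34051+NEC.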

Other observations

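Lipid handling genes known to respond to PPAR receptors, 16 outside the 36 members, were divided between PCI34051+NEC and NEC. Of 13 measured, 6 lay 2-fold or more above NEC (25.0% of all measured genes) and 5 below it (25.6% of all). Their median log2 fold was -0.93. Lower in PCI34051+NEC were Plin4, Mgll, Cyp4a14, Cyp4a32 and Plin5. Of these, Cyp4a14, Cyp4a32 and Plin5 had 0 counts in PCI34051+NEC, and 42, 16 and 13 in NEC. Fatty acid uptake and binding genes had their highest level in PCI34051+NEC. Cd36, a fatty acid translocase, was at 112 CPM in PCI34051+NEC, 17.3 CPM in NEC and 13.8 CPM in control. Fabp2, the intestinal fatty acid binding protein, was at 2571 CPM in PCI34051+NEC, 616 CPM in NEC and 314 CPM in control. Fabp1, the liver-type binding protein that the small intestine also makes, had 5537 counts in PCI34051+NEC, 743 in NEC and 2 in control. Genes of lipid droplets and their breakdown were divided: Plin4 was at 1.71 CPM in PCI34051+NEC, 17.4 CPM in NEC and 3.27 CPM in control and the lipase gene Mgll at 17.6 CPM in PCI34051+NEC, 41.8 CPM in NEC and 20.3 CPM in control, both highest in NEC, whereas the droplet coat gene Plin2 was at 502 CPM in PCI34051+NEC, 162 CPM in NEC and 728 CPM in control, highest in control.

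Of 14 other regulators, among them nuclear receptors and partners of PPAR-alpha, 3 lay 2-fold or more above control in PCI34051+NEC and 1 below it, where 6.55% of all measured genes lay each way, so the 1 is near the share of all genes. The bile acid receptor gene Nr1h4 was at 519 CPM in PCI34051+NEC, 238 CPM in NEC and 192 CPM in control, and Pparg, the receptor of adipocytes and colon epithelium, at 30.6 CPM in PCI34051+NEC, 12.1 CPM in NEC and 11.1 CPM in control. The oxysterol receptor gene Nr1h3 was the 1 that was lower, at 16.5 CPM in PCI34051+NEC, 20.8 CPM in NEC and 42.5 CPM in control.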
